A study of Mus musculus with 34 samples.

Results

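The left ventricle (LV) of mouse hearts injected with Luc modRNA was compared between 4 h and 24 h after myocardial infarction (MI). The comparison used 7 of the 34 libraries of the series, 4 collected at 4 h and 3 collected at 24 h, chosen by the treatment and time given for each library. Every one of these mice was of the CFW strain, had the left anterior descending artery (LAD) tied off for good, which stops flow to part of the LV, and received modRNA into the border zone of the infarct straight after the ligation. The labels give neither age nor genotype, and they do not say whether each library came from its own mouse, so the p-values below measure the spread between libraries, which may be technical. That spread, and so each standard error, was pooled over the groups of a table of 24 libraries and not taken from the 7 libraries alone. Luc modRNA is synthetic messenger RNA that codes for firefly luciferase, a reporter enzyme with no role in mouse tissue. The same table of 24 libraries also held Luc hearts at 48 h (n = 4), hearts injected with AC modRNA at 4 h (n = 4), 24 h (n = 3) and 48 h (n = 4), and sham hearts without infarct or injection (n = 2, labelled 4 h), and a separate table held uninjected hearts at 4 h (n = 3) and 24 h (n = 4) post-MI.

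As background, cells cut off from their blood supply in an infarct die within hours, and their contents reach pattern-recognition receptors of neighbouring cells. Neutrophils arrive first and monocytes follow, interferon-stimulated genes are switched on through the transcription factors Stat2, Irf9 and Irf7, and cardiomyocytes that survive at the border turn on a stretch and load program. RNA injected into tissue can also reach sensors of foreign RNA, and no group of infarcted hearts injected with buffer alone was analysed here, so the effect of the infarct and that of the injection cannot be told apart in these libraries.

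Values are CPM, read counts in the scaling of the deposited table, after the 1 that this table adds was subtracted. Values of single libraries are listed in the order 1 to 4 for 4 h and A, C and D for 24 h. Library totals ran from 640621 to 716871 CPM at 4 h and from 730630 to 818456 CPM at 24 h, without overlap, so sums of CPM over gene lists carry this difference between the times. The 10 most abundant genes took 13.2% to 13.7% of the totals at 4 h and 12.6% to 14.4% at 24 h. Pearson's r of log2 values lay between 0.991 and 0.996 for pairs of 4 h libraries, between 0.972 and 0.983 for pairs of 24 h libraries and between 0.929 and 0.954 across the times, as a description over genes that share these libraries. The 22 sarcomere and Z-disc genes, which mark heart muscle and whose sum was not used to tell ventricle from atrium, summed to 69077 to 82792 CPM at 4 h and 83509 to 107264 CPM at 24 h. Atrial genes without Nppa summed to 11.8 to 21.0 CPM at 4 h and 63.0 to 225 CPM at 24 h. The names of the 24 h libraries carry other letters than those of the 4 h libraries and lack their run of sample numbers, so time and any difference in library handling cannot be told apart. Library A of 24 h stood apart from C and D for inflammatory genes, and counts over gene lists that moved by over 1.5 times without it are given both ways. Asah1, acid ceramidase, was at 25.7, 27.2, 23.9 and 25.8 CPM in the Luc libraries of 4 h and at 22.6, 21.98 and 24.7 CPM in those of 24 h, against 5296 to 13703 CPM in the AC libraries of 4 h. The sources used here do not spell out AC, and whether these Asah1 reads came from the injected RNA or from the gene in the tissue was not tested.

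Of 17406 genes in the table, 12555 had a mean of at least 1 CPM over the 24 libraries and were tested, and 4851 were not. A gene was called at a q value (limma, Benjamini-Hochberg) under 0.05, and "rose" or "fell" below refers to called genes. From 4 h to 24 h 3079 genes (24.5%) rose and 979 (7.8%) fell, with a median log2 difference over all genes of 0.14. The balance of directions depended on the scaling of the libraries: with median-ratio factors the all-gene median shifted by -0.15 and gave 1967 higher and 1800 lower, and rescaling to equal totals moved it by -0.19 and gave 1712 higher and 1834 lower. In the same direction under all 3 scalings, 1685 genes (13.4%) rose and 976 (7.77%) fell. The rises and falls of the genes named below held their sign under both rescalings, and a call that a rescaling took away is given as such. In lists described as having no rise or no fall, at most 1 member had an unadjusted p under 0.05 in that direction. After a mean in CPM, ± gives the SD over libraries (n = 4 at 4 h and n = 3 at 24 h), and after a log2 difference it gives the standard error. Depth is unknown for these values, and since the tissue was bulk LV, fewer cells of a type and less RNA per cell cannot be told apart.

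Among genes with at least 10 CPM, a call and no overlap between the times, 1992 rose and 498 fell, and the 12 largest changes each way joined acute-phase, interferon, atrial and stress genes. Saa3, an acute-phase apolipoprotein made by macrophages and stromal cells, was at 1.15, 0.596, 1.22 and 0.368 CPM in the 4 h libraries and at 263, 30.8 and 60.02 CPM in the 24 h libraries. Every 24 h library was above every 4 h library, with library A highest, and the log2 difference was 5.48 ± 0.59 (SE, limma q = 9.2e-07). Lcn2, lipocalin 2, which binds the iron carriers of bacteria, went from 18.9, 9.58, 13.2 and 9.17 CPM to 1069.8, 227 and 286 CPM, again highest in A and without overlap (log2 difference 4.96 ± 0.50, limma q = 4.4e-07). Serpina3n, a serine protease inhibitor of the acute phase, rose from 51.4 ± 28.6 to 886 ± 279.8 CPM (log2 difference 4.21 ± 0.66, limma q = 7.7e-05), and its neighbour Serpina3m, whose reads resemble it closely enough that counting may divide them, rose by 3.89. Cd274, which codes for the checkpoint ligand PD-L1, rose from 10.8 ± 1.77 to 227 ± 132 CPM (log2 difference 4.07 ± 0.63, limma q = 6.8e-05). Ankrd2, a stretch-responsive ankyrin repeat protein of striated muscle, was at 3.11, 1.44, 2.44 and 1.399 CPM at 4 h and 56.6, 34.6 and 81.7 CPM at 24 h, with D highest and no overlap (log2 difference 4.20 ± 0.48, limma q = 1.8e-06). Angptl7, a secreted angiopoietin-like protein, rose by 4.38 and Gm4841, a predicted gene, by 4.21.

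The largest falls were led by Atf3, a stress-induced transcription factor, at 302, 302, 274 and 293 CPM in the 4 h libraries and 54.3, 50.01 and 37.6 CPM in the 24 h libraries. The 4 h values lay within 274 to 302 CPM, far above all 3 later ones (log2 difference -2.62 ± 0.41, limma q = 7.3e-05), and the sham hearts were at 9.61 and 7.55 CPM. Cd83, a surface protein of activated dendritic and B cells, fell from 16.2 ± 0.8288 to 2.82 ± 0.618 CPM (log2 difference -2.18 ± 0.23, limma q = 5.6e-07). Col5a3, a fibrillar collagen chain, fell by 2.01, Aqp7, the glycerol channel, by 2.01, and Retnla, a product of alternatively activated macrophages, by 1.83. Malat1, a nuclear long non-coding RNA, was at 672, 1168, 532 and 1017 CPM at 4 h, with libraries 2 and 4 above 1 and 3, and at 206, 182 and 226 CPM at 24 h, without overlap (log2 difference -1.98 ± 0.49, limma q = 0.0041). The plot of the 24 largest changes shows these genes beside the sham libraries.

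**Figure D1:**
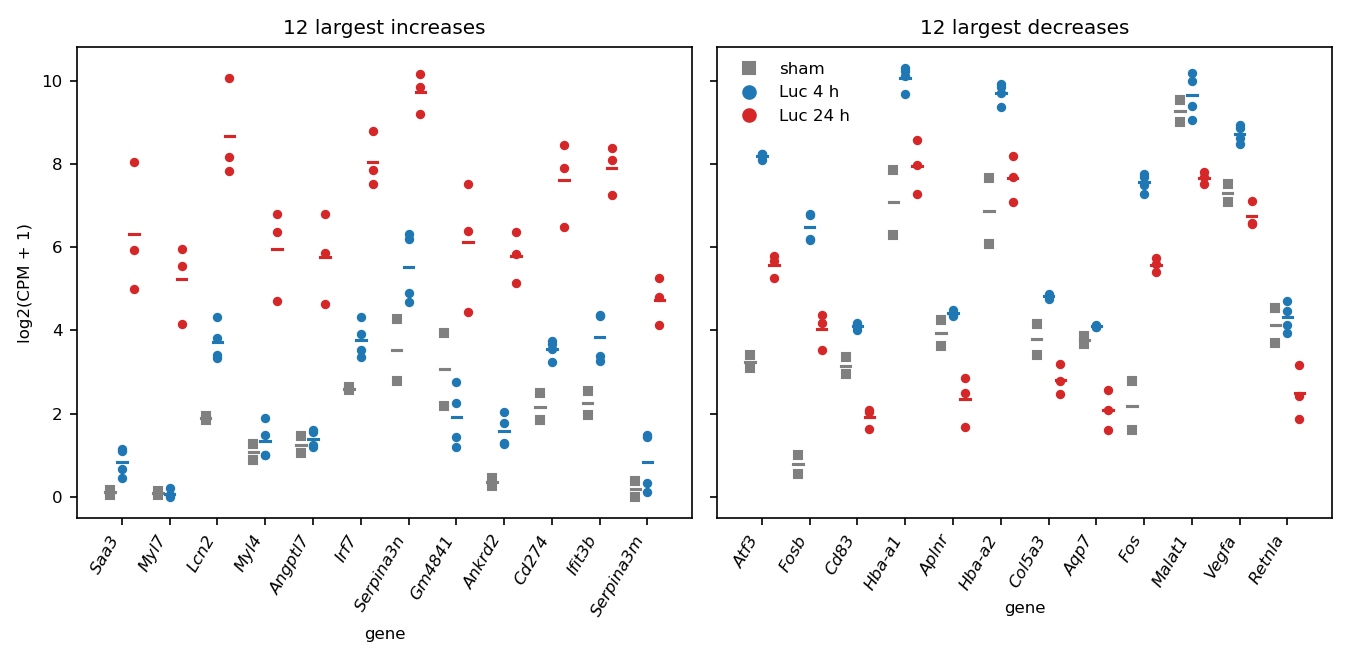
The 12 largest increases and the 12 largest decreases from 4 h to 24 h, each point 1 library on a log2(CPM + 1) axis, with sham libraries as squares, Luc 4 h libraries in blue, Luc 24 h libraries in red and bars at the group means. For every gene shown the 4 h and 24 h libraries do not overlap, as the rule for choosing them required, and Saa3 covers 30.8 to 263 CPM among the 3 later libraries.

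Interferon-stimulated genes rose as a group. Of 41 listed, 40 were tested, 37 rose and none fell, beside 24.5% and 7.8% of all genes, with a median log2 difference of 2.57 beside 0.14 over all genes. Under all 3 scalings 36 of them rose, and without library A 36 rose. Irf7, the transcription factor that amplifies type I interferon signalling, was at 18.9, 9.37, 14.01 and 10.6 CPM in the 4 h libraries and at 443, 230.1 and 184 CPM in the 24 h libraries. Each later library was above each earlier one, with the lowest later value far over the highest earlier one, and the log2 difference was 4.28 ± 0.36 (SE, limma q = 5.4e-08). Sham hearts were at 5.21 and 4.95 CPM.

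Promoter sequence was looked up for these genes because Irf9 and Irf7, named above, bind repeats of GAAA. The motif GAAANNGAAA, or TTTCNNTTTC on the opposite strand, was looked for in RefSeq promoters, 250 bases before to 50 after the start. It stood in at least 1 promoter of 1079 of 27025 genes (3.99%) and of 377 of the 9737 tested genes that had a promoter entry (3.87%). Of the 28 tested interferon-stimulated genes with an entry, 16 (57.1%) held it, and 12 had no entry. A match of letters is a description and not a bound site. The 8 windows below come from RefSeq promoters on GRCm38.p6. Their genes changed most among members whose match, with 10 bases on each side, lay wholly before the start. Promoters on a chromosome that was set aside were left out of this choice. Each is given 5′ to 3′ on the gene's strand with the motif in capitals.
Ifit3b: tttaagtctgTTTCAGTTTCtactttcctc
Ifit3: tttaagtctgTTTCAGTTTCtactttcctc
Rsad2: ctggtccaacTTTCATTTTCagaaaacaga
Gbp3: acagtttcagTTTCTATTTCccagatccct
Gbp2: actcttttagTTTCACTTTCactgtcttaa
Bst2: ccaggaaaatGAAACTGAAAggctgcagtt
Oas3: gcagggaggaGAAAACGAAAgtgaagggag
Oas1a: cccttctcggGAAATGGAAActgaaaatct
The windows lie at chr19:34607793-34607822 (+, Ifit3b), chr19:34583397-34583426 (+, Ifit3), chr12:26456553-26456582 (-, Rsad2), chr3:142559995-142560024 (+, Gbp3), chr3:142620594-142620623 (+, Gbp2), chr8:71537577-71537606 (-, Bst2), chr5:120777715-120777744 (-, Oas3), chr5:120907526-120907555 (-, Oas1a), each upstream of the annotated start of its gene. Between the capitals and the start lie 144, 112, 110, 29, 49, 114, 65 and 10 bases for Ifit3b, Ifit3, Rsad2, Gbp3, Gbp2, Bst2, Oas3 and Oas1a, in that order. Ifit3b and Ifit3 carry the same 30 bases.

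The Ifit genes, whose proteins bind foreign RNA and block its translation, stood near the top of the list. Ifit3 was at 43.8, 24.5, 44.4 and 24.4 CPM at 4 h and 651, 552 and 302 CPM at 24 h, and the log2 difference was 3.82 ± 0.54 (SE, limma q = 2.4e-05). Libraries 1 and 3 of 4 h were above 2 and 4, a split seen too in Ifit3b, which was at 19.5, 8.63, 19.6 and 9.46 CPM and 335, 272 and 153 CPM (log2 difference 4.07 ± 0.46, limma q = 1.4e-06). These are near-identical copies whose reads the counting may divide. Ifit2 rose from 47.9 ± 14.01 to 596 ± 269 CPM (log2 difference 3.55 ± 0.58, limma q = 1.3e-04) and Ifit1 from 68.6 ± 22.1 to 329 ± 130.2 CPM (log2 difference 2.21 ± 0.51, limma q = 0.0024). Rsad2, viperin, which makes a chain-terminating nucleotide, was at 51.7, 26.6, 58.7 and 22.4 CPM and then at 276, 785 and 303 CPM, with library C highest of the later ones (log2 difference 3.42 ± 0.71, limma q = 0.0011). Usp18, the protease that removes Isg15 and damps the interferon receptor, rose from 5.66 ± 2.36 to 94.3 ± 47.6 CPM (log2 difference 3.74 ± 0.52, limma q = 2.0e-05).

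The RNA sensors Ddx58 (RIG-I), Dhx58 and Ifih1 (MDA5) rose by 3.26, 3.42 and 1.91 on the log2 scale, and the guanylate-binding proteins Gbp2 and Gbp3 by 3.03 and 3.08. The signalling factors Stat2 and Irf9 rose by 2.25 and 1.61. The smallest called rise was that of Irf1 (1.12), not called when 24 h library A or C or 4 h library 1, 2, 3 or 4 was left out alone (log2 differences 0.55 to 1.19) and not called under a rescaling. Oas1a and Oas1g, close copies of a 2-5A synthetase, rose by 2.52 and 2.67. Members named here beyond the naming rule were chosen after their values were seen. The 3 members that were not called were Ifi27l2a at 0.64, Ifi204 at 0.86 and Ifi205 at 0.88. Ifnb1, interferon beta itself, had a mean over the 24 libraries under the 1 CPM minimum and was not tested, at 1.75, 1.23, 0.338 and 1.44 CPM in the 4 h libraries and 0.365, 0.475 and 0.353 CPM in the 24 h libraries. In a fit without that minimum its log2 difference was -0.60 ± 0.17, limma q = 0.015.

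**Figure D2:**
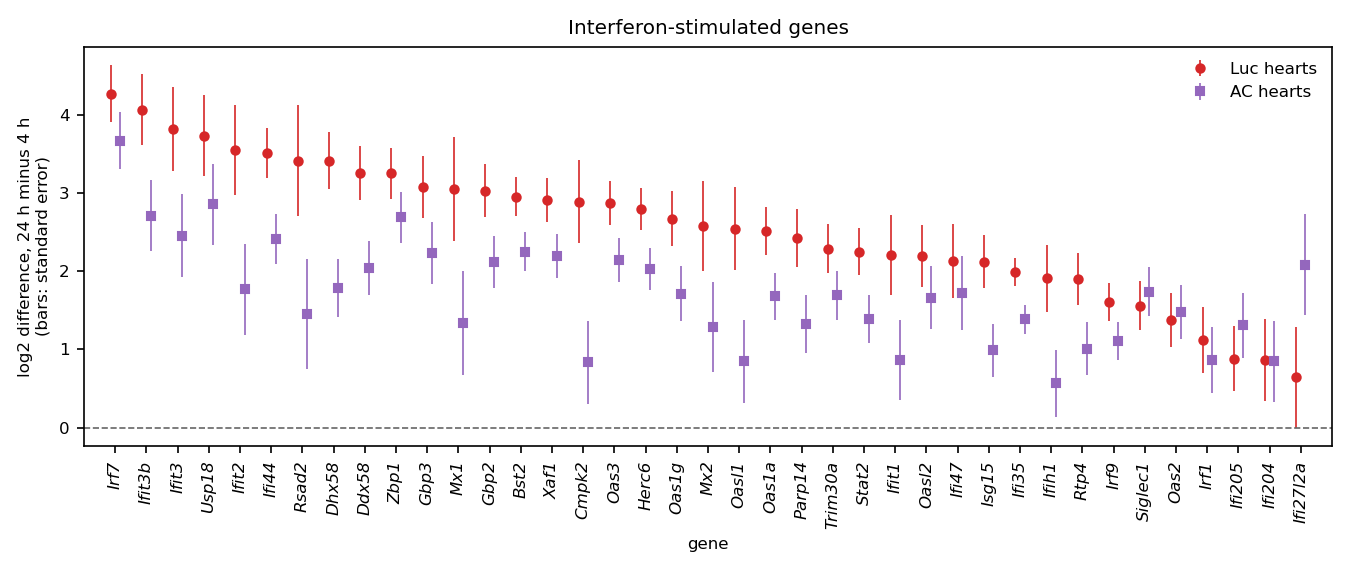
Log2 difference from 4 h to 24 h of 39 of the 40 interferon-stimulated genes, each point the limma estimate with its standard error, for hearts given Luc modRNA and hearts given AC modRNA. Every Luc point lies above 0, from 0.64 to 4.28, and the AC median over the 40 genes is 1.69.

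Fewer cytokine and chemokine genes were called when 24 h library A was left out, and so were fewer of all genes. Over the 12555 genes tested, 2344 rose and 723 fell without library A, after 3079 and 979 with every library. Leaving out library C gave 2623 and 687, and leaving out D gave 2470 and 731. Of 18 tested genes of the IL-1 family and inflammasome 10 rose and none fell, beside 24.5% and 7.8% of all genes. Under all 3 scalings 8 rose and without library A 6 rose, and the list median was 1.04. Il33, an alarmin released by damaged cells, was at 17.3, 7.47, 13.6 and 8.51 CPM at 4 h and 58.6, 48.9 and 20.8 CPM at 24 h, without overlap (log2 difference 1.73 ± 0.43, limma q = 0.0040). Nfkbia, the inhibitor that NF-kappaB induces against itself, rose by 1.49 ± 0.45, Casp4, a caspase that opens the lytic death pathway, by 1.45 ± 0.38, and Nlrp3, an inflammasome sensor, by 1.44 ± 0.35. Il1b, the main secreted IL-1, was at 18.7, 13.1, 15.3 and 12.9 CPM and 22.6, 10.2 and 8.62 CPM, overlapping between the times and not called. Nfkbia was not called without 24 h library A (log2 difference 1.21), and Nlrp3 kept its call without library A at 0.91. Il1a went from 0.645, 0.439, 0.265 and 0.1103 to 11.9, 0.658 and 1.11 CPM, far the highest in library A, and was not called when 24 h library A or 4 h library 3 or 4 was left out alone (log2 differences 0.47 to 1.37). Il1rn, the IL-1 receptor antagonist, was at 4.12, 2.53, 3.86 and 2.798 CPM and 18.5, 7.85 and 4.23 CPM and was not called.

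Of 12 tested genes of the IL-6 family 5 rose and none fell (4 without library A), beside 24.5% and 7.8% of all genes. Their median was 0.54. Il6ra, the ligand-binding receptor chain, was at 3.53, 3.61, 3.86 and 3.498 CPM at 4 h and 11.2, 15.8 and 11.1 CPM at 24 h. The groups were far apart and tight, and the log2 difference was 1.55 ± 0.22 (SE, limma q = 3.2e-05). Osmr, the oncostatin M receptor, rose by 1.40 ± 0.32 and Clcf1, a cytokine of the family, by 1.27 ± 0.29. Il6 itself was at 57.2, 35.6, 50.7 and 32.8 CPM and 128, 34.5 and 23.98 CPM, with A above and D below every 4 h library, and was not called, nor was Osm (0.64). Lif, leukaemia inhibitory factor, rose by 1.55 with all libraries but was not called without 24 h library A (log2 difference 0.63), where it stood at 21.3 CPM against 2.66 and 1.96 CPM in C and D.

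Among 11 tested CXC chemokines 7 rose and 1 fell, beside 24.5% and 7.8% of all genes. Their median was 1.89, and without library A 4 rose and 1 fell. Cxcl9, a T cell attractant induced by interferon gamma, was at 4.79, 3.51, 4.84 and 3.79 CPM at 4 h and 142, 56.1 and 23.4 CPM at 24 h. All later libraries were above all earlier ones, with A highest (log2 difference 3.49 ± 0.57, limma q = 1.3e-04). Cxcl11, which acts on the same receptor, rose by 2.65 ± 0.47 and Cxcl13, a B cell attractant, by 2.65 ± 0.45. The neutrophil attractants moved with library A: Cxcl1 was at 675, 86.6 and 82.99 CPM at 24 h against 36.5 to 72.3 CPM at 4 h and was not called, and Cxcl5 rose by 2.94 with A and by 1.82 without it. Cxcl2, at 240.3, 33.4 and 25.9 CPM at 24 h, rose by 2.17, lost its call under a rescaling and was not called when 24 h library A or 4 h library 2, 3 or 4 was left out alone (log2 differences 1.17 to 2.18), its value being 1.17 without library A. Cxcl3 rose by 1.89 and was not called without 24 h library A (log2 difference 0.85) or 4 h library 2 (log2 difference 1.73). The single fall was Cxcl12, the ligand of Cxcr4 that holds leukocytes and progenitors in tissue, from 207 ± 9.398 to 102 ± 15.7 CPM (log2 difference -1.03 ± 0.29, limma q = 0.0098), not called without 24 h library C (log2 difference -0.90). It was chosen after its values were seen.

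Of 13 tested CC chemokines 5 rose and 1 fell, beside 24.5% and 7.8% of all genes. Their median was 0.25, and without library A 4 rose and 1 fell. Ccl5, a T cell and monocyte attractant, was at 6.47, 5.23, 6.97 and 5.74 CPM at 4 h and 44.3, 33.8 and 35.1 CPM at 24 h, with no overlap and little spread among the later libraries (log2 difference 2.44 ± 0.46, limma q = 4.4e-04). Ccl19, the Ccr7 ligand of lymphoid tissue, rose by 2.66 ± 0.43 and Ccl3, made by macrophages, by 1.70 ± 0.43, while Ccl24, an eosinophil attractant of resident macrophages, fell from 2.999 ± 0.662 to 0.475 ± 0.0972 CPM. Ccl2, the main monocyte attractant, was at 83.2, 53.1, 69.8 and 52.7 CPM and 282, 64.2 and 56.8 CPM and overlapped between the times, as did Ccl4, and neither was called.

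Leukocyte markers did not move as a block. Of 18 tested neutrophil genes (25 listed) 7 rose and none fell, beside 24.5% of all genes, with a median of 0.57, and without library A 5 rose. The listed neutrophil genes S100a8 and S100a9 were at 34.5, 17.5, 24.1 and 14.9 and 85.6, 43.8, 64.99 and 39.1 CPM at 4 h and at 15.6, 8.94 and 8.89 and 42.2, 20.7 and 30.4 CPM at 24 h. Their ranges overlapped and neither was called (-0.94 and -0.87), and Csf3r, the G-CSF receptor, was not called either (-0.64). The rises were led by Lcn2, given above, Slfn4 and Hdc. Hdc, histidine decarboxylase, rose from 7.59 ± 0.886 to 53.3 ± 7.66 CPM (log2 difference 2.66 ± 0.47, limma q = 2.5e-04) and Slfn4, an interferon-responsive gene of myeloid cells, by 2.92 ± 0.60. The granule gene Ngp went from 3.29, 1.37, 3.08 and 2.099 to 19.3, 14.1 and 14.5 CPM, without overlap (log2 difference 2.32 ± 0.47, limma q = 8.2e-04). Summed without Lcn2 the list held 99.2 to 197 CPM at 4 h and 152 to 282 CPM at 24 h, which overlap, and no member was at 0 in every library of either group.

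Of 24 monocyte and recruited macrophage genes 8 rose and 2 fell, beside 24.5% and 7.8% of all genes. Their median was 0.62, and without library A 7 rose and 2 fell. Plac8, a gene of circulating monocytes and granulocytes, was at 1.29, 0.702, 0.812 and 0.589 CPM at 4 h and 19.4, 13.9 and 10.7 CPM at 24 h. The groups were far apart, and the log2 difference was 3.06 ± 0.22 (SE, limma q = 1.3e-08). Lgals3, galectin 3, rose from 2.85 ± 0.645 to 14.7 ± 3.46 CPM (log2 difference 2.02 ± 0.24, limma q = 3.4e-06) and Fcgr1, the high-affinity IgG receptor, from 2.51 ± 0.712 to 12.2 ± 1.34 CPM (log2 difference 1.93 ± 0.22, limma q = 2.0e-06). Ly6c2, the marker of inflammatory monocytes, rose by 1.35, lost its call under a rescaling and was not called when 24 h library A or 4 h library 2 or 4 was left out alone (log2 differences 0.84 to 1.25). Ccr2, the receptor that brings monocytes in, stood at 1.01, 0.7998, 0.8404 and 1.02 CPM and 0.888, 0.857 and 0.862 CPM. The falls were Lyz2, lysozyme, by 1.16 and Csf1r, the receptor for M-CSF, by 0.78. The list summed to 247 to 332 CPM at 4 h and to 641, 279.99 and 345 CPM in libraries A, C and D of 24 h, and these ranges overlap. The sum includes Saa3, given above, which was also highest in library A, and no sum without Saa3 was made.

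Resident macrophage genes were lower or not called: of 12 tested 3 fell and none rose, beside 7.8% and 24.5% of all genes. Their median was -0.43. Mgl2, a lectin of resident and alternatively activated macrophages, was at 9.15, 9.79, 9.51 and 9.66 CPM at 4 h and 2.83, 3.67 and 3.46 CPM at 24 h. The 4 h values were nearly equal and all above the later ones (log2 difference -1.29 ± 0.27, limma q = 0.0010). Fcrls fell by 1.13 on the log2 scale and Cbr2, carbonyl reductase 2, by 1.01. Cbr2 was not called when 24 h library A or C or 4 h library 2 or 4 was left out alone (log2 differences -0.97 to -0.86). Lyve1, Timd4 and Folr2, which define the self-maintaining resident cells, were not called, at 0.26, -0.09 and -0.39. The 14 genes summed to 127 to 174 CPM at 4 h and 77.3 to 124 CPM at 24 h. Of the B and T cell genes, 12 of 13 were not tested, and Cd3e, the T cell receptor signalling chain, rose by 1.42 but not under a rescaling, and was not called when 24 h library C or 4 h library 1, 2 or 4 was left out alone (log2 differences 1.06 to 1.44). Of 3 platelet genes tested none was called by limma, and 1 had an unadjusted p under 0.05.

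Immediate early and heat shock genes held falls as well as rises. Of 22 immediate early transcription factors 5 fell and 2 rose, beside 7.8% and 24.5% of all genes, with a median of -0.29. Besides Atf3, Fos fell from 181, 216, 156 and 206 CPM to 47.4, 52.3 and 41.3 CPM and Fosb from 72.8, 110.2, 70.9 and 108 to 10.5, 19.9 and 17.3 CPM. Both pairs of groups were far apart (log2 difference -1.98 ± 0.48, limma q = 0.0037 for Fos, log2 difference -2.45 ± 0.48, limma q = 6.8e-04 for Fosb), and the later values still lay above the sham hearts at 2.05 and 5.84 CPM for Fos. Nr4a3, an orphan nuclear receptor induced by stretch and hypoxia, fell by 1.81 and Jun by 0.72 on the log2 scale, Jun being not called without 24 h library A (log2 difference -0.58) or 4 h library 2 (log2 difference -0.66). Junb and Ier3 rose by 1.16 and 0.95, calls that a rescaling took away, Junb not called when 24 h library A or D or 4 h library 2 or 3 was left out alone (log2 differences 0.78 to 1.20) and Ier3 not called when 24 h library A or D or 4 h library 2, 3 or 4 was left out alone (log2 differences 0.52 to 1.01). Without library A none of the list rose and 7 fell. Fosl1 stood at 10.6, 2.47 and 0.399 CPM at 24 h, above, within and below the 4 h values, and was not called.

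Among 18 heat shock chaperones 7 fell and 2 rose, beside 7.8% and 24.5% of all genes. Their median was -0.35, and without library A 6 fell and 1 rose. Without 24 h library C or 4 h library 1 or 2, 4 fell. Dnaja1, the cochaperone of Hsc70, was at 92.1, 108, 88.9 and 102 CPM at 4 h and 41.2, 41.9 and 37.97 CPM at 24 h, against 58.3 and 46.4 CPM in sham hearts. The later libraries were close to each other and below all earlier and sham ones, and the log2 difference was -1.25 ± 0.15 (SE, limma q = 3.0e-06). Serpinh1, the collagen chaperone Hsp47, fell by 1.17, Hsph1, a nucleotide exchange factor, by 1.03 and Dnajb1 by 0.97 on the log2 scale. Hspa1a and Hspa1b, the inducible Hsp70 copies that share most of their sequence, were at 25.2, 40.1, 15.6 and 42.3 and 17.9, 28.3, 14.3 and 30.6 CPM at 4 h and 36.3, 6.67 and 8.600 and 24.9, 5.82 and 7.07 CPM at 24 h. Library A was within the 4 h range and C and D were below it, and neither gene was called. The small heat shock protein Hspb7 of cardiomyocytes rose by 0.83.

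Both metallothioneins Mt1 and Mt2 rose. Of 15 oxidative stress genes 7 rose and none fell (5 without library A), beside 24.5% and 7.8% of all genes. Their median was 0.62. Mt1 and Mt2, which bind zinc and copper, were at 312, 171, 176 and 175 and 256, 114, 159.8 and 122 CPM at 4 h, and at 883, 744 and 1062 and 733, 676 and 906 CPM at 24 h. Library 1 was highest at 4 h for both and still below all later libraries (log2 difference 2.13 ± 0.37, limma q = 2.4e-04 for Mt1, log2 difference 2.30 ± 0.51, limma q = 0.0018 for Mt2). Hmox1, heme oxygenase 1, which breaks down heme, rose from 34.97 ± 12.3 to 150.3 ± 52.02 CPM (log2 difference 2.08 ± 0.38, limma q = 3.7e-04). Slc7a11, the cystine importer, rose by 1.16 but not under a rescaling, and was not called when 24 h library A or 4 h library 2 or 4 was left out alone (log2 differences 0.53 to 1.12).

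Of 16 tested genes of the ATF4 response 9 rose and none fell (7 without library A), beside 24.5% and 7.8% of all genes. Their median was 0.69. Slc7a5, the large neutral amino acid transporter, was at 5.45, 5.51, 7.18 and 5.19 CPM at 4 h and 31.00, 17.8 and 17.8 CPM at 24 h, without overlap (log2 difference 1.72 ± 0.26, limma q = 4.3e-05), and its partner chain Slc3a2 rose from 43.03 ± 4.77 to 111 ± 14.1 CPM (log2 difference 1.35 ± 0.19, limma q = 2.4e-05). Mthfd2, a mitochondrial one-carbon enzyme, rose by 1.34 ± 0.25 and Ddit4, the mTORC1 inhibitor, by 1.28 ± 0.35. Atf4 rose by 0.71, not under a rescaling, and was not called without 24 h library A (log2 difference 0.53), and Ddit4 was not called without 24 h library C (log2 difference 1.07). Ddit3 (CHOP) and Atf5 were not called, at 0.26 and -0.20.

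**Figure D3:**
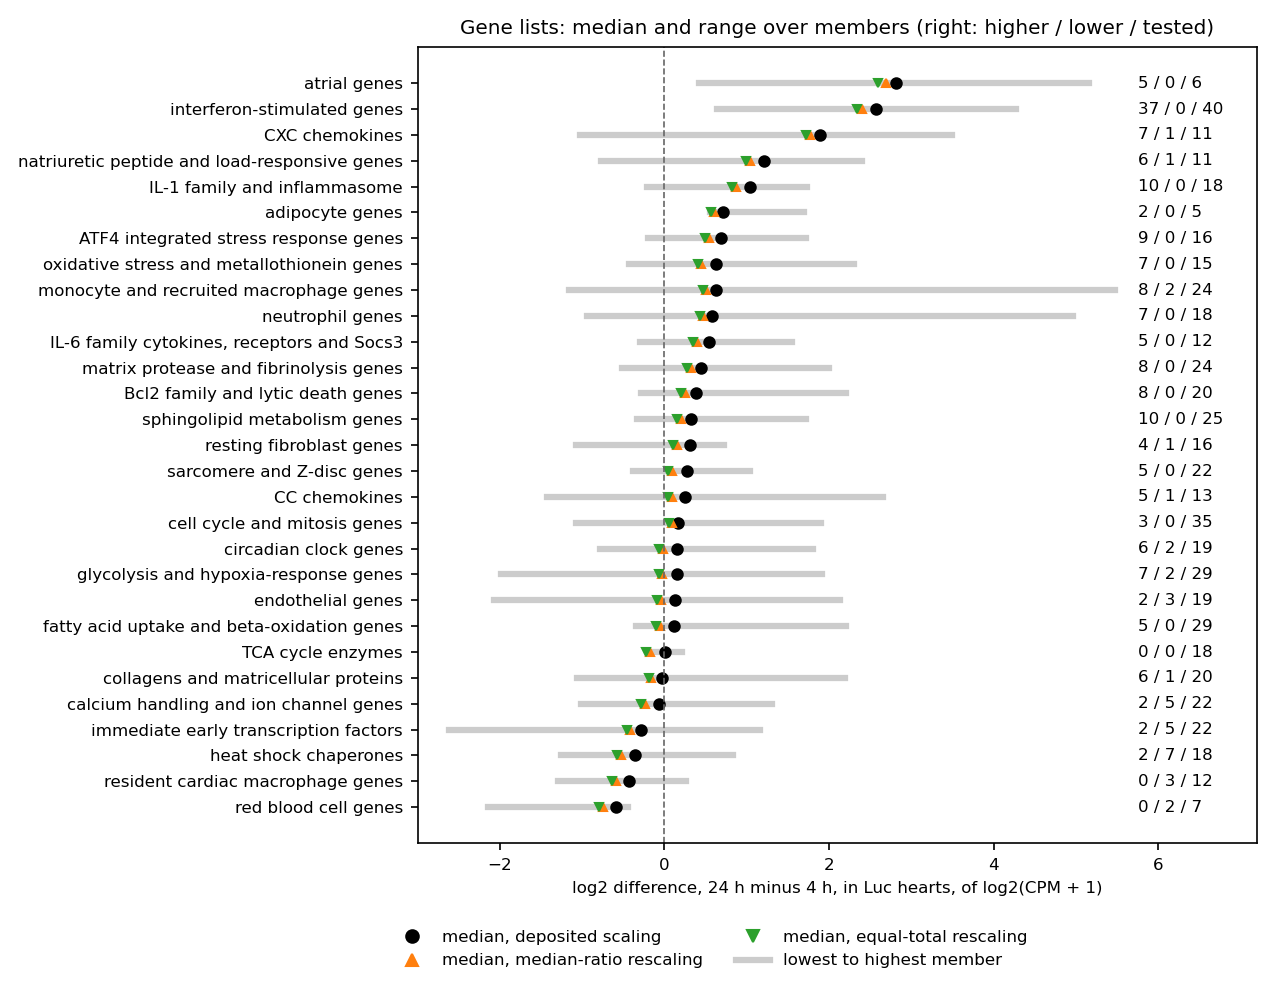
Median log2 difference from 4 h to 24 h of 29 gene lists with at least 5 tested members under the deposited scaling and the 2 rescalings, with the range over members and the numbers that rose, fell and were tested. The interferon-stimulated list sits at 2.57 with 37 of 40 members higher, and TCA cycle enzymes at 0.00 with none of 18 called.

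Cardiomyocyte genes were followed by function. Of 22 sarcomere and Z-disc genes 5 rose and none fell (2 under all 3 scalings), beside 24.5% and 7.8% of all genes, with a median of 0.27. Without 24 h library D, 2 rose, and 3 rose without 4 h library 2 or 4. Myh7, the slow myosin heavy chain of the fetal and loaded ventricle, was at 1179, 949, 806 and 946 CPM at 4 h and 1804, 1709 and 2483 CPM at 24 h. Every later library was above every earlier one (log2 difference 1.04 ± 0.25, limma q = 0.0030). Actn2, alpha-actinin of the Z-disc, rose by 0.58. Myh6, the fast myosin of the adult mouse ventricle, rose by 0.79 and Tcap, telethonin, by 0.70, calls that a rescaling took away. Myh6 was not called without 24 h library D (log2 difference 0.70), and Tcap was not called when 24 h library D or 4 h library 2, 3 or 4 was left out alone (log2 differences 0.60 to 0.68). Actc1, cardiac actin, was not called (-0.02).

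Of 11 tested natriuretic peptide and load-responsive genes 6 rose and 1 fell, beside 24.5% and 7.8% of all genes. Their median was 1.21, and without library A 4 rose and none fell. Fhl1, a LIM protein of the titin stretch sensor, was at 183, 144, 171 and 151 CPM at 4 h and 1216, 493 and 1051 CPM at 24 h. Even library C, the lowest later one, was well above the 4 h libraries (log2 difference 2.40 ± 0.34, limma q = 2.7e-05). Nppa, atrial natriuretic peptide, rose from 128 ± 28.7 to 367 ± 81.02 CPM (log2 difference 1.52 ± 0.36, limma q = 0.0030) and Acta1, the skeletal actin of stressed myocytes, from 216 ± 33.8 to 628 ± 208 CPM (log2 difference 1.49 ± 0.36, limma q = 0.0031). Nppb, the other natriuretic peptide, was at 324, 310.2, 271 and 337 CPM and 500.1, 197 and 344 CPM, on both sides of the earlier range, and was not called. The fall was Ctgf, a matricellular target of Yap, by 0.77 on the log2 scale and not called when 24 h library A or C or 4 h library 1, 2, 3 or 4 was left out alone (log2 differences -0.79 to -0.52).

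Channel genes split. Of 22 calcium handling and ion channel genes 5 fell and 2 rose, beside 7.8% and 24.5% of all genes. Their median was -0.07, and 3 fell without 24 h library D. Kcnd2, a pore subunit of the transient outward potassium current, was at 16.5, 20.2, 17.97 and 17.7 CPM at 4 h, 7.33, 9.64 and 8.86 CPM at 24 h and 19.8 and 29.8 CPM in sham hearts. All later values lay below all others (log2 difference -0.995 ± 0.22, limma q = 0.0019). Kcnj3, a subunit of the muscarinic potassium channel, fell by 1.01 ± 0.31, and Pln, phospholamban, which restrains the calcium pump, from 4456 ± 127 to 3122 ± 165 CPM (log2 difference -0.51 ± 0.16, limma q = 0.015), not called without 24 h library A (log2 difference -0.47). Gja1, connexin 43, fell by 0.83, not called without 24 h library D (log2 difference -0.60), and Kcnj2 by 0.77, not called without 24 h library D (log2 difference -0.51) or 4 h library 2 (log2 difference -0.70). Kcnh2, the hERG channel, rose from 39.1 ± 4.803 to 97.7 ± 7.13 CPM (log2 difference 1.30 ± 0.24, limma q = 3.7e-04). The calcium pump Atp2a2 and the release channel Ryr2 were not called, at 0.05 and 0.24.

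Of 29 fatty acid uptake and oxidation genes 5 rose and none fell (3 under all 3 scalings), beside 24.5% and 7.8% of all genes. Over all alternative fits 0 to 8 of the list fell, and none fell in any fit with 1 library left out. When 24 h library A or D or 4 h library 2 or 4 was left out alone, 3 of the list rose. The list median of 0.11 turned to -0.06 and -0.11 under the rescalings. Ucp3, a mitochondrial carrier induced by fatty acids, was at 23.9, 19.1, 23.7 and 21.2 CPM at 4 h, 102, 148 and 75.8 CPM at 24 h and 26.4 and 83.1 CPM in sham hearts. It rose by 2.21 ± 0.51 from 4 h, with 1 sham library inside the later range. Ppara, the nuclear receptor over this pathway, rose by 0.96 ± 0.17 and Cpt1a, a gatekeeper of mitochondrial import, by 0.86 ± 0.21. Slc27a1, a fatty acid transporter, rose by 0.62, a call lost under a rescaling, and was not called when 24 h library A or D or 4 h library 2, 3 or 4 was left out alone (log2 differences 0.45 to 0.63). Cd36, Lpl and Fabp3 were not called. None of the 18 TCA cycle enzymes was called in either direction by limma, beside 24.5% and 7.8% of all genes, and 0 of them had an unadjusted p under 0.05. Their median was 0.00 (-0.17 and -0.22 under the rescalings) and their range -0.18 to 0.21. Over all alternative fits 0 to 6 of these enzymes fell, none of them in a fit with 1 library left out.

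Of 29 glycolysis and hypoxia-response genes 7 rose and 2 fell, close to the 24.5% and 7.8% of all genes. Under all 3 scalings 4 rose and 2 fell, close to the 13.4% and 7.77% of all genes. Without library A 4 rose and 2 fell, and the list median of 0.15 turned to -0.03 and -0.07 under the rescalings. Vegfa, the main angiogenic growth factor, was at 397, 490.3, 359 and 467 CPM at 4 h, 139, 94.3 and 93.4 CPM at 24 h and 135 and 183 CPM in sham hearts. The 4 h libraries stood above all others and the 24 h libraries, but for A, below both sham libraries, and the log2 difference was -1.98 ± 0.22 (SE, limma q = 1.5e-06). Pfkfb2, the cardiac form of the enzyme that sets fructose 2,6-bisphosphate, fell by 1.27 ± 0.25. Pfkfb3, the inducible form, was at 233, 164 and 65.6 CPM at 24 h after 29.4 to 43.1 CPM at 4 h and rose by 1.92, not called without 24 h library A (log2 difference 1.53) or 24 h library C (log2 difference 1.78). Slc2a1, the basal glucose transporter, rose by 1.22 ± 0.25. Adm, adrenomedullin, a vasodilator peptide, rose by 1.51, not called without 24 h library A (log2 difference 1.22). Slc2a4, the insulin-responsive transporter, was not called (0.31), and Hk1 rose by 0.54 but not under a rescaling.

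**Figure D4:**
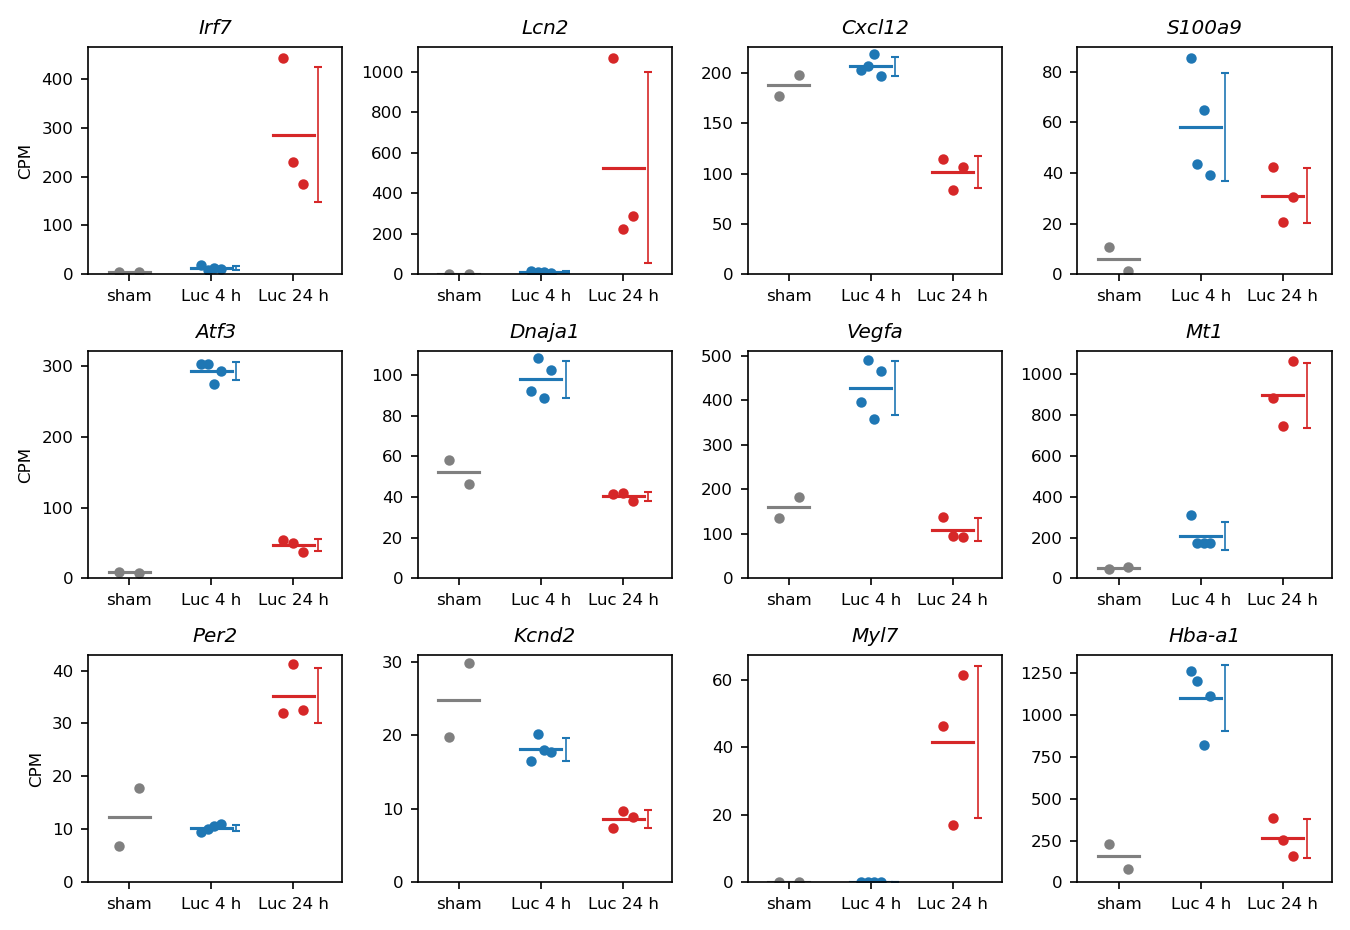
CPM of 12 genes in sham, Luc 4 h and Luc 24 h libraries, 1 point per library on linear axes from 0 with a scale of its own in each panel, lines at the means and bars of 1 SD. Irf7, Lcn2, Mt1, Per2 and Myl7 are higher at 24 h, Cxcl12, Atf3, Dnaja1, Vegfa, Kcnd2 and Hba-a1 lower, and S100a9 overlaps between the times.

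Lox, Timp3, Col4a1 and Col4a2 were among the genes of the matrix and its turnover that rose. Of 20 tested collagens and matricellular proteins 6 rose and 1 fell, beside 24.5% and 7.8% of all genes, with a median of -0.03. Without library A 5 rose and none fell, and 3 fell without library D. Lox, lysyl oxidase, which crosslinks collagen, was at 2.901, 3.16, 3.79 and 3.06 CPM at 4 h and 21.9, 14.6 and 19.2 CPM at 24 h. The groups were far apart, and the log2 difference was 2.20 ± 0.26 (SE, limma q = 3.4e-06). Col4a1 and Col4a2, the basement membrane chains encoded head to head, rose from 353 ± 38.5 and 256 ± 35.97 CPM to 989 ± 105 and 627 ± 98.1 CPM (log2 difference 1.48 ± 0.25, limma q = 2.1e-04 and log2 difference 1.29 ± 0.26, limma q = 9.8e-04). Tnc, tenascin C, rose by 1.89 and was not called without 24 h library A (log2 difference 1.09). The scar collagens Col1a1, Col1a2 and Col3a1 were not called (0.16, 0.33 and -0.92), and for all 3 the order at 24 h was A lowest, C between and D highest. Cyr61, a Yap target, fell by 1.07 and was not called when 24 h library A or C or 4 h library 1, 2, 3 or 4 was left out alone (log2 differences -1.11 to -0.71).

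Of 24 proteases and inhibitors 8 rose and none fell (5 under all 3 scalings and 5 without library A), beside the same shares of all genes, with a median of 0.44. Timp3, the matrix-bound metalloprotease inhibitor, was at 328, 302, 356 and 294 CPM at 4 h and 835, 878 and 911 CPM at 24 h. The later libraries were close to each other and above all earlier ones, and the log2 difference was 1.45 ± 0.30 (SE, limma q = 0.0011). Timp1 rose by 1.78 ± 0.42 on the log2 scale (1.17 without library A) and Adamts15, a versican-cleaving protease, by 2.002 ± 0.25. Mmp2, gelatinase A, rose by 0.94 but not under a rescaling, and was not called without 24 h library A (log2 difference 0.93) or 24 h library D (log2 difference 0.81), and Mmp3 and Mmp8 were not called. Among 16 resting fibroblast genes 4 rose and 1 fell, close to the 24.5% and 7.8% of all genes. None rose without 24 h library D, and 2 rose without 4 h library 2 or 4. Of the 4, 1 rose under all 3 scalings, Serpinf1, which makes an anti-angiogenic factor, by 0.72, not called without 24 h library D (log2 difference 0.50). Lrrc15, the listed gene that fell, moved by -1.07 and was not called without 24 h library D (log2 difference -0.98). Whether it marks resting fibroblasts in this tissue was not tested. Gsn, gelsolin, rose by 0.58, not called when 24 h library D or 4 h library 2, 3 or 4 was left out alone (log2 differences 0.40 to 0.58). Dcn, decorin, rose by 0.48, not called without 24 h library D (log2 difference 0.42). Pdgfra, the fibroblast receptor for PDGF, rose by 0.56 and was not called when 24 h library A, C or D or 4 h library 1, 2 or 4 was left out alone (log2 differences 0.49 to 0.60). These 3 calls did not hold under every rescaling, and Lum, lumican, was not called (-0.39).

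Among 19 tested endothelial genes 2 rose and 3 fell, beside 24.5% and 7.8% of all genes. The list median of 0.12 turned to -0.05 and -0.10 under the rescalings. Their sum was 1283 to 1449 CPM at 4 h and 1294 to 2341 CPM at 24 h. Aplnr, the apelin receptor, was at 21.7, 19.7, 19.3 and 20.5 CPM at 4 h and 2.22, 4.600 and 6.19 CPM at 24 h. Its fall left no overlap (log2 difference -2.07 ± 0.41, limma q = 7.2e-04). Esm1, a marker of tip cells, fell by 0.81 and Emcn, endomucin, by 0.77. Icam1 and Vcam1, which arrest leukocytes on the vessel wall, rose by 2.14 and 1.21, Icam1 not called without 24 h library A (log2 difference 1.39) and Vcam1 not called when 24 h library A or 4 h library 2 or 4 was left out alone (log2 differences 0.75 to 1.15) and under a rescaling. Without library A none of the list rose and 4 fell, and 1 rose without 4 h library 2 or 4. Pecam1, Cdh5 and Kdr were not called, at 0.17, 0.64 and 0.00.

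Of 19 circadian clock genes 6 rose and 2 fell, beside 24.5% and 7.8% of all genes. The list median of 0.15 turned to -0.02 and -0.07 under the rescalings. Per1, a repressor of the clock, was at 62.3, 54.98, 51.8 and 54.4 CPM at 4 h, 148, 219 and 237 CPM at 24 h and 32.4 and 84.9 CPM in sham hearts. Its later libraries were all above the others (log2 difference 1.81 ± 0.35, limma q = 6.8e-04), as were those of Per2 at 31.9, 41.2 and 32.5 CPM after 9.61 to 10.97 CPM (log2 difference 1.67 ± 0.27, limma q = 9.8e-05). Tef, a clock output factor, rose by 1.11 ± 0.21 and Ciart, another repressor, by 1.38, the latter not called without 24 h library D (log2 difference 1.09). Npas2 fell by 0.77 and Bhlhe41 by 0.79, and the activators Arntl and Clock were not called (0.20 and -0.20). The labels give hours after MI and no clock time of collection.

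Of 35 cell cycle genes 3 rose and none fell, beside 24.5% and 7.8% of all genes, with a median of 0.16. Cdkn1a, the p21 brake on the cycle, was at 151, 144, 141 and 152 CPM at 4 h and 496, 588 and 581 CPM at 24 h, without overlap (log2 difference 1.90 ± 0.48, limma q = 0.0044). The others were Mcm3, a helicase subunit of replication (0.78), and Nusap1, a spindle protein (0.77), not called under a rescaling and not called when 24 h library C or D or 4 h library 2 or 4 was left out alone (log2 differences 0.66 to 0.70). Mki67, Top2a and Ccna2, which mark dividing cells, were not called, at 0.37, 0.01 and -0.08.

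Of 20 tested death genes 8 rose and none fell, beside 24.5% and 7.8% of all genes. Under all 3 scalings 7 rose and without library A 7 rose, and the list median was 0.38. Mlkl, the pore of necroptosis and itself inducible by interferon, was at 3.88, 3.12, 4.13 and 3.35 CPM at 4 h and 20.02, 26.9 and 15.3 CPM at 24 h, with library C highest. Each later library was far above each earlier one, and the log2 difference was 2.21 ± 0.22 (SE, limma q = 3.7e-07). Bcl2l1, the survival protein Bcl-xL, rose from 53.02 ± 7.29 to 208 ± 24.4 CPM (log2 difference 1.95 ± 0.25, limma q = 7.5e-06), as did the death-promoting Bid (1.25 ± 0.16) and Pmaip1 (1.27 ± 0.30). Bcl2 and Bcl2l11 were not called, at -0.19 and 0.16.

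Sphingolipid genes include Asah1, whose reads were far higher in AC than in Luc hearts at 4 h. Of 25 tested 10 rose and none fell, beside 24.5% and 7.8% of all genes, with a median of 0.32. Under all 3 scalings 3 rose, beside 13.4% of all genes, and without library A 5 rose and 1 fell. Without 4 h library 2 or 4, 6 rose. Sphk1, which makes sphingosine-1-phosphate, was at 19.3, 14.2, 13.8 and 12.6 CPM at 4 h, 64.2, 43.99 and 46.6 CPM at 24 h and 2.38 and 3.78 CPM in sham hearts. The times did not overlap and both were above sham (log2 difference 1.72 ± 0.49, limma q = 0.011). Sphk2 rose by 0.96 ± 0.16, and S1pr1, the lipid's receptor on endothelium, by 0.73, not called under a rescaling and not called without 24 h library A (log2 difference 0.65). Acer2, a Golgi ceramidase, rose by 0.72, not under a rescaling, and was not called when 24 h library A or C or 4 h library 1, 2 or 4 was left out alone (log2 differences 0.63 to 0.74). Asah1 and Asah2 were not called.

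Genes of the atrium, red blood cells, fat and mesothelium were looked at because a sample of ventricle can hold their RNA. Of 6 tested atrial genes 5 rose and none fell, beside 24.5% and 7.8% of all genes, with a median of 2.82. Myl7, the atrial light chain, was at 0, 0.0351, 0.0338 and 0.147 CPM at 4 h, 46.2, 16.98 and 61.3 CPM at 24 h and 0.0326 and 0.0952 CPM in sham hearts. It was near 0 in every early library and highest in D and lowest in C among the later ones (log2 difference 5.16 ± 0.65, limma q = 6.5e-06). Myl4, the other atrial light chain, was at 82.1, 25.01 and 111 CPM at 24 h (log2 difference 4.61 ± 0.71, limma q = 7.2e-05) and Sln, sarcolipin, at 14.3, 3.54 and 18.2 CPM (log2 difference 3.36 ± 0.74, limma q = 0.0017), in the same order of libraries. Mybphl rose by 2.27 and was not called without 24 h library A (log2 difference 1.99) or 24 h library D (log2 difference 1.93). Without Nppa, the list summed to 11.8 to 21.0 CPM at 4 h, 63.0 to 225 CPM at 24 h and 9.52 to 78.4 CPM in the Luc hearts of 48 h, with no member at 0 in every library. Whether atrial tissue was in the 24 h pieces cannot be told apart here from expression of these genes in the ventricle, and the part of either in the results for Nppa, Myl4, Myl7, Ankrd2 and Fhl1 was not tested.

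Of 7 red blood cell genes tested 2 fell and none rose, beside 7.8% and 24.5% of all genes, with a median of -0.59. Hba-a1 and Hba-a2, near-identical alpha-globin copies, fell by 2.14 and 2.05, from 1265, 1204, 823 and 1111 CPM to 382, 251 and 155 CPM for Hba-a1, while the beta-globins were not called (Hbb-b1 -0.45). The list summed to 2106 to 3138 CPM at 4 h, 577 to 1384 CPM at 24 h and 274 to 991 CPM in sham hearts, so that both sham hearts lay below the 4 h range, and the part of blood in the tissue in the other results was not tested. Of 5 adipocyte genes tested Plin4, a lipid droplet coat also of muscle, rose from 189 ± 13.7 to 626 ± 161 CPM (log2 difference 1.69 ± 0.28, limma q = 1.3e-04) and Cfd by 1.62, with Adipoq at 2.41, 1.298, 2.13 and 1.62 CPM and 1.57, 2.48 and 6.94 CPM, not called. Of 2 mesothelial genes tested Clu, clusterin, rose by 0.56, not under a rescaling, and was not called when 24 h library A or D or 4 h library 3 or 4 was left out alone (log2 differences 0.42 to 0.56).

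**Figure D5:**
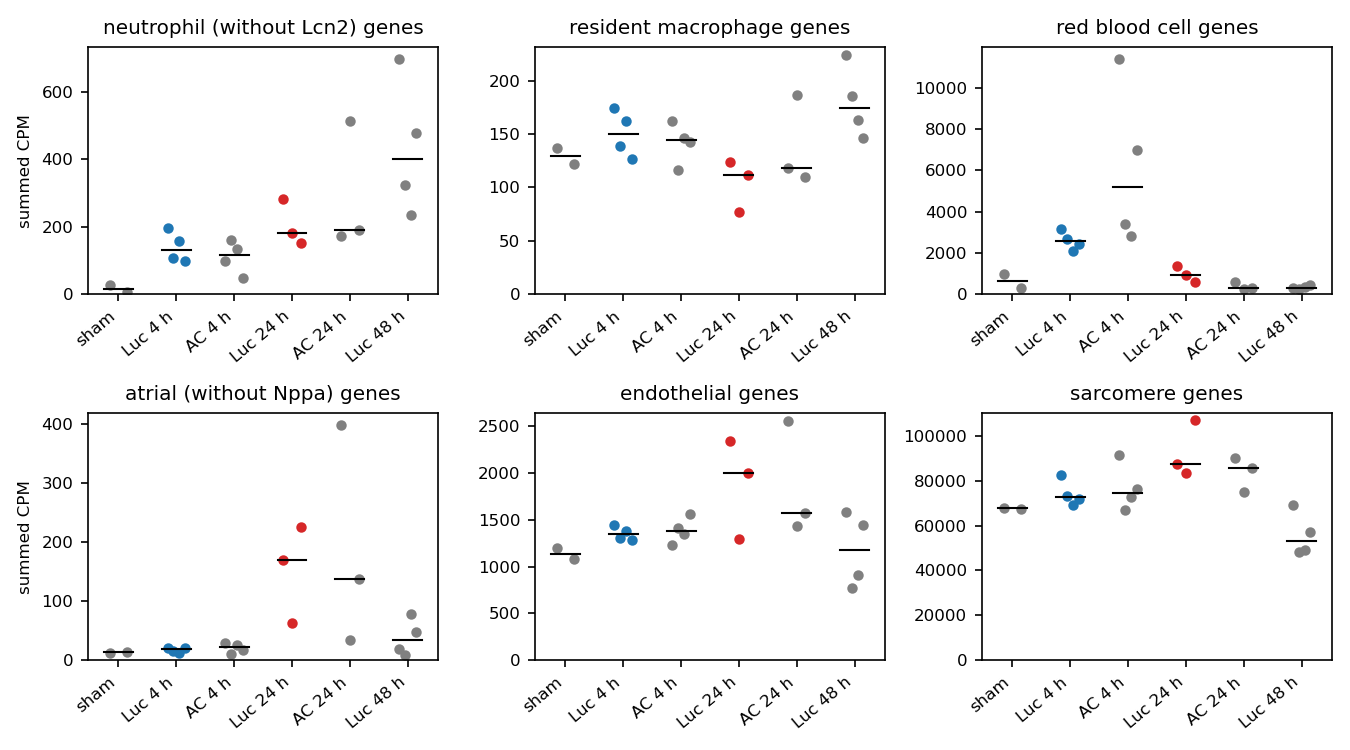
Summed CPM per library of 6 marker lists in sham, Luc and AC hearts by time, 1 point per library with a line at the median. Atrial genes without Nppa reach 225 CPM at 24 h in Luc hearts against at most 21.0 CPM at 4 h, and red blood cell genes run from 2106 to 3138 CPM at 4 h and from 577 to 1384 CPM at 24 h.

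The same interval in hearts given AC modRNA shares no library with the Luc comparison. There 1874 genes (14.9%) rose and 477 (3.8%) fell. The test of the difference between the changes called 1 gene, 0.00796% of 12555, by limma, with 379 at an unadjusted p under 0.05. That gene was Asah1, with a difference of -5.27 ± 0.45, limma q = 5.1e-07. Of the interferon-stimulated genes 31 rose in AC hearts, with Irf7 at 167, 181 and 226 CPM at 24 h and a change of 3.68 beside 4.28 in Luc hearts (difference -0.60 ± 0.52, limma q = 1.0). Vegfa was at 187 to 268 CPM in AC hearts of 4 h, below all Luc hearts of that time, and its change was -0.66 beside -1.98 (difference 1.32 ± 0.32, limma q = 1.0). A q value over the threshold does not show that the changes were alike.

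Values in other groups of the study set these levels in context. In Luc hearts at 48 h Irf7 ranged from 88.6 to 128 CPM, Saa3 from 4.48 to 37.99 CPM, Ifit3 from 21.9 to 122 CPM and Lox from 39.4 to 76.2 CPM. The uninjected hearts were normalized in a separate table, so their values stand beside these with no test between them. The paper describes their tissue as the ischemic area and does not describe that of the Luc libraries. The injection, the piece of tissue and the table cannot be told apart in what follows. Without injection Irf7 stood at 6.63 ± 0.809 CPM early and 52.7 ± 18.7 CPM late, and Ifit3 at 3.97 ± 1.01 and 27.1 ± 11.5 CPM. S100a9 was at 8.195 ± 4.64 CPM and then 540.2 ± 370.1 CPM there, against 58.4 ± 21.4 and 31.1 ± 10.8 CPM in Luc hearts. Dnaja1 was at 44.9 ± 1.15 and 109.7 ± 16.2 CPM, and Vegfa at 216 ± 36.3 and 223 ± 31.2 CPM. Atf3 was at 227 ± 36.8 and 204 ± 49.2 CPM without injection, where Luc hearts had 293 ± 13.1 and 47.3 ± 8.66 CPM. The median log2 difference of the neutrophil list was 4.20 over 21 tested members in the uninjected table and 0.57 over 18 in Luc hearts. That of sarcomere genes was -0.65 and 0.27 over 22 each, and that of interferon-stimulated genes 1.81 and 2.57 over 40 each.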

How the data were processed

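RNA of the LV was sequenced from polyadenylated, stranded libraries. The authors aligned reads to mm10 with STAR, counted them on UCSC RefSeq genes by expectation-maximization in Partek Flow, which divides reads among similar genes, and scaled them by TMM, as stated for the hearts of the paper and not separately for this table. The deposited values are CPM with 1 added to each. Groups were taken from the labels.

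Here 1 was subtracted, genes averaging 1 CPM or more over 24 libraries were kept, and log2(CPM + 1) was fitted with limma 3.58.1 (R 4.3.3, Python 3.11), 1 model with 7 groups, empirical Bayes with trend and Benjamini-Hochberg q values. Fold changes on this scale understate the changes of low genes. The members and gene lists were chosen with earlier results of these data known. Named genes were the 12 largest changes each way (q under 0.05, at least 10 CPM over the 7 libraries, no overlap), up to 4 largest called and the first 3 tested members of each list, and up to 6 genes of lowest q for the AC and Luc difference, where genes tied at the highest q were left out. Some genes that the rule or a list holds are not reported by name here and stay in the counts over lists and over all genes. On simulated data for the Luc comparison with 12555 genes, limma recovered 28 of 50 genes changed by a fold of 2, 50 of 50 at 4, 32 of 50 at 0.5 and 49 of 50 at 0.25, with 12 false calls. The simulation assumed a depth and the same spread for every gene, and left all other genes unchanged between groups. It gave the 24 h libraries no wider spread than the 4 h libraries. These counts therefore test the code and do not give the recovery or false calls in the real libraries.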

Additional observations from a re-analysis of the deposited data

Results flagged for a closer look

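The change of Asah1 from 4 h to 24 h differed between AC and Luc hearts by -5.27 on the log2 scale in the test of the difference itself. Among 182 named genes, 8 had a 4 h library that stood apart from the other 3 by Dixon's test, and chance flags about 1 in 20 groups. The highest libraries were those of Kcnj3 (library 3, 40.8 CPM), Idh2 (library 1, 1765 CPM), Mt1 (library 1, 312 CPM), Slc7a5 (library 3, 7.18 CPM) and Bcl2l11 (library 2, 11.4 CPM). The lowest were those of Timd4 (library 2, 1.65 CPM), Npas2 (library 1, 2.66 CPM) and Plin4 (library 4, 169 CPM).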

How the results depend on the processing

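The 4058 genes changed from 4 h to 24 h became 6147 with limma array weights and 5653 when only the libraries compared were fitted. They became 2548 of 7719 tested with a mean of at least 10 CPM, where fewer genes were tested, and 3067 to 3704 when 1 library was left out. The cause of the rise with array weights was not tested. The difference between AC and Luc hearts held 1 gene, 3 without the filter on low values, 3 with the replicate block, which added Hbb-b1 and Hbb-bs, and 1 to 3 when 1 library was left out (3 without the 24 h AC library a, which added Arg1 and Vegfa). The replicate block used numbers that AC and Luc libraries share but that do not pair them: the deviations of same-numbered libraries from their group means correlated by -0.07 to 0.09 at 24 h and by -0.14 to 0.25 at 4 h, and 3 of 14 libraries correlated best with their own number. Of 182 named genes 129 were called, 96 of them under every alternative run, 33 lost the call under at least 1, 14 of the 53 others gained one, and none reversed. The counts higher or lower depended on the scaling more than their sum did. Over the alternatives the interferon-stimulated genes that rose numbered 34 to 39, the heat shock and the immediate early genes that fell 4 to 11 each, and the atrial genes that rose 3 to 5. With 3 and 4 libraries and unknown depth, small changes of low genes may be missed.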
